A study of Homo sapiens with 32 samples.

Results

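The experiment described here asked what a 3-hour block of mTOR by PP242 did to the mRNAs carried on polysomes of MDA-MB-231 cells that were kept in normoxia. MDA-MB-231 is an established human line from a metastatic triple-negative breast carcinoma. The experiment held 4 of the 32 libraries of the series, namely 2 of polysome-bound mRNA (P) from cells in normoxia with 2.5 µM PP242 (NPP) and 2 from cells in normoxia with the DMSO vehicle (N). They were chosen by cell line, fraction and treatment in the sample labels, which call the 2 libraries of each group biological replicates 1 and 2. The other groups used were total mRNA (T) of the same line under N and NPP, polysomal mRNA after 24 hours at 0.5% O2 without (H) or with PP242 for 3 hours (HPP), and polysomal N and NPP mRNA of MCF10A, an immortalised and non-tumourigenic breast epithelial line, with 2 libraries in each. Polysomal libraries came from sucrose gradient fractions that held light and heavy polysomes, so that an mRNA with few ribosomes and one with many count alike.

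PP242 occupies the ATP site of mTOR and so blocks both complexes that hold this kinase. mTORC1 phosphorylates the 4E-BPs, the repressors of the cap-binding protein eIF4E, and controls LARP1, which binds the cap and the first bases of TOP mRNAs. TOP mRNAs begin with a C at the cap followed by a run of pyrimidines, the 5′ terminal oligopyrimidine tract, and encode ribosomal proteins and many elongation and initiation factors. When mTORC1 is blocked these mRNAs are known to leave polysomes while the mRNA itself persists. mTORC2 activates AKT, which holds FOXO transcription factors out of the nucleus, and mTORC1 also holds the lysosomal regulators TFEB and TFE3 in the cytoplasm.

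The tract can be read from the annotated transcription start sites. Windows from 10 bases before to 20 bases from the start are shown in lower case, with the pyrimidine run that begins at the start in capitals, taken from RefSeq on GRCh38.p14. The first set was chosen to show the run, among mRNAs whose polysomal level fell while total mRNA did not pass the test.
RPS18, chr6:33272065-33272094 (+ strand): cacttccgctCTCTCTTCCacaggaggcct
RPS19, chr19:41860245-41860274 (+ strand): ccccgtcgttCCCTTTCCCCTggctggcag
RPL12, chr9:127451387-127451416 (- strand): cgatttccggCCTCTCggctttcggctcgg
RPL27A, chr11:8682782-8682811 (+ strand): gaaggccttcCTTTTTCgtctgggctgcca
TPT1, chr13:45341164-45341193 (- strand): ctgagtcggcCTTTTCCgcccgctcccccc
EEF1A1, chr6:73521013-73521042 (- strand): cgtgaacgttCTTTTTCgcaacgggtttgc
SLC25A6, chrX:1392094-1392123 (- strand): gctgctccgtCCTTTCggtccaggcggcgg
RPL22L1, chr3:170870176-170870205 (- strand): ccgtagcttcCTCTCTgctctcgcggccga
The second set holds mRNAs that also fell in P and not by the test in T, but that have no run of at least 5 pyrimidines at the annotated start.
YBX1, chr1:42682408-42682437 (+ strand): ctgtcccgccattctcgctagttcgatcgg
EEF1G, chr11:62573872-62573901 (- strand): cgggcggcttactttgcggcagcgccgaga
AHCY, chr20:34311783-34311812 (- strand): cccagggggcctggagggaggggcgtggat
The third set is shown for contrast and was chosen among mRNAs without such a run that rose or fell in both fractions.
CCNG2, chr4:77157197-77157226 (+ strand): gggcgtcgaaactcttaacaaaaacaaggg
PIM1, chr6:37170142-37170171 (+ strand): cctcccctttactcctggctgcggggcgag
HBP1, chr7:107168993-107169022 (+ strand): gaagcttgaaagacttggtaatggcgacgg
ID3, chr1:23559482-23559511 (- strand): gagcgtgcgcgcgttgcaggtcactgtagc
RPS18, RPS19, RPL12 and RPL27A are ribosomal proteins, TPT1 is the translationally controlled tumour protein, EEF1A1 brings aminoacyl-tRNA to the ribosome and SLC25A6 exchanges ADP and ATP across the inner mitochondrial membrane. RPL22L1 is a paralogue of the ribosomal protein RPL22.

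The deposited values are expected counts per gene. The 2 polysomal N libraries held 24478793 and 32479393 counts and the 2 NPP libraries 32999882 and 31684812, and the 4 total mRNA libraries held 18340916 to 34752512. Vimentin (VIM) and AXL, markers of the line, were abundant. Vimentin was at 3772 and 3945 CPM in N and 3113 and 3263 CPM in NPP and AXL at 715 and 869 CPM in N and 825 and 731 CPM in NPP. The basal epithelial keratins KRT5 and KRT6A and the desmoglein DSG3 had 0 counts in all 4 polysomal libraries, which allows up to 0.131 CPM for each, at 3 counts in the smallest library and for counting error only. E-cadherin (CDH1) was at 0.392 and 0.323 CPM in N and 0.283 and 0.242 CPM in NPP. Other epithelial markers were present. The luminal marker list, with KRT18 as its most abundant member, summed to 1391 and 1213 CPM in N and 1093 and 1042 CPM in NPP. The basal list, with SFN as its most abundant member, summed to 177 and 210 CPM in N and 119 and 150 CPM in NPP. Mitochondrially encoded mRNAs, which are translated inside the organelle, took 0.545% and 0.993% of protein-coding counts in polysomal N and 0.572% and 1.05% in NPP, against 4.86% to 6.01% in total mRNA. These mRNAs were thus at low share in all 4 polysomal libraries, and the second library of each group held more of them than the first. No tested member of the mesenchymal, basal, luminal or blood cell marker lists passed the test between NPP and N by edgeR or DESeq2, and 2 of the 28 had an unadjusted p under 0.05 by edgeR.

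In P, 264 of 13510 protein-coding genes tested changed with PP242, of which 161 fell and the others rose, by the quasi-likelihood F test of edgeR at a Benjamini-Hochberg adjusted p under 0.05. The genes that rose were 0.762% and those that fell 1.19% of tested genes, and the median log2 fold change (log2FC, NPP against N) over all of them was −0.00066. Ribosomal proteins and a curated list of other TOP mRNAs made up 76 and 11 of the genes that fell. The called genes split by what total mRNA did. All genes that rose in P also had a positive log2FC in T, with a median of 0.86 in T and 0.96 in P, and 44 of them were among the 51 genes that rose in T, where 0.377% of genes rose. The 76 ribosomal protein mRNAs that fell in P had a median of 0.097 in T, where none of them passed the test or had an unadjusted p under 0.05, and 0.178% of all genes fell. The 74 other genes that fell had medians of −0.84 in P and −0.65 in T, and 22 of them were among the 24 genes that fell in T.

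**Figure D1:**
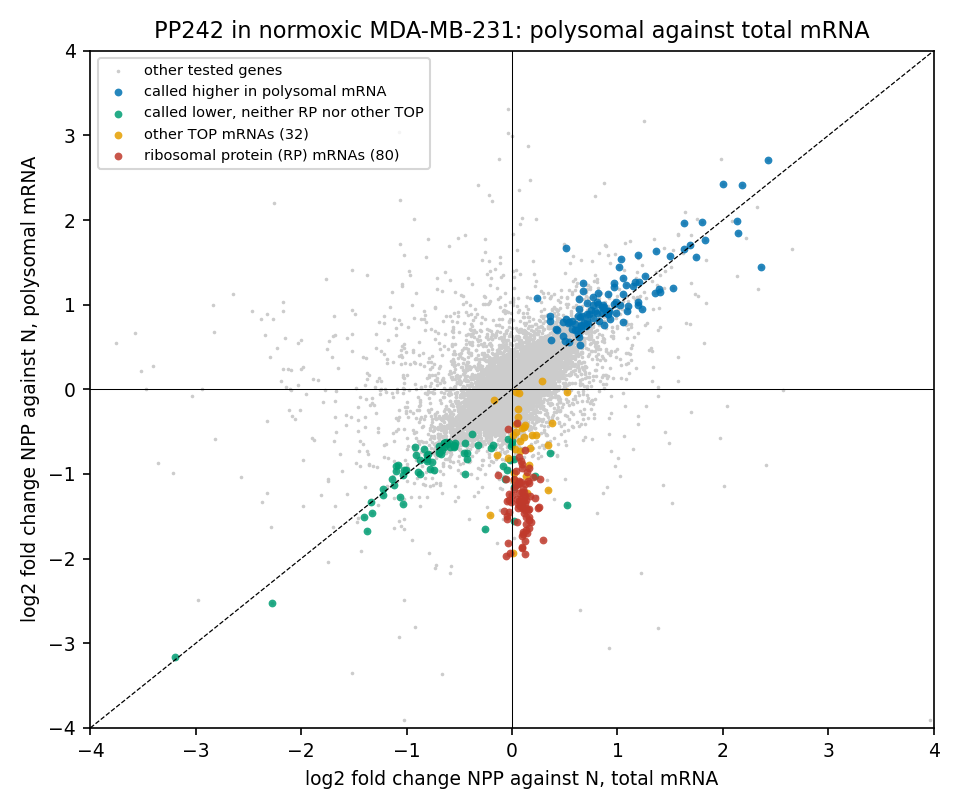
Log2 fold change with PP242 in normoxia in total mRNA (x axis) and polysomal mRNA (y axis) of MDA-MB-231, 1 point per tested gene, with 68 of 13510 genes outside the plotted range of −4 to 4. Ribosomal protein mRNAs form a vertical band at a median of −1.32 in P and 0.093 in T, while genes called higher lie along the dashed line of equal change.

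The numbers of calls moved with the scaling and with single libraries. With library totals in place of TMM scaling 247 genes rose and 124 fell, and that scaling moved the median log2FC of all genes to 0.16, while the number of ribosomal protein and other TOP mRNAs that fell stayed at 87. Without the first NPP library 33 rose and 55 fell, and without the second 39 and 93. Without the first N library the counts were 60 and 100, and without the second 34 and 113. The ribosomal protein and other TOP mRNAs that fell numbered 44 without the first NPP library and 65 to 82 without one of the others. With a replicate block in the fit 213 rose and 238 fell. Of 148 genes named by the rule that passed the test 60 also passed with each of the 4 libraries left out in turn, of which 39 were ribosomal proteins. The others that did so were TPT1, EEF1A1, EEF1G, YBX1, GNB2L1, GAPDH, ID3, RRS1 and SPANXA1, whose reads are shared with a copy, which fell, and CCNG2, CREBRF, PIM1, HBP1, HIST1H2AC, HIST1H2BC, RHEBL1, ANKRD37, PNRC1, FNIP1, INSIG1 and CENPF, which rose. The rest of the 148 missed the test without at least 1 library, with adjusted p of up to 0.431. Of 7 further called genes named outside that rule, SLC25A6, CRTAP and RPL22L1 passed with each library left out, and AHCY, SLC25A5, PFDN5 and UBE2V1 did not, with adjusted p of up to 0.223. The p-values measure the spread between these libraries, and counts are shares of a library, so that less RNA per cell and fewer cells of a kind cannot be told apart, and the amount of RNA on polysomes per cell was not measured.

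Ribosomal protein mRNAs fell nearly as a whole in P and kept their share of total mRNA. The 80 genes of both subunits took 10.3% and 9.27% of protein-coding counts in polysomal N but 4.24% and 4.58% in NPP. In total mRNA they took 7.7% and 8.65% in N and 7.99% and 9.08% in NPP, so that the groups were apart in P and overlapped in T. Of 48 large subunit mRNAs 45 fell in P and none rose, with a median log2FC of −1.30, and of 32 small subunit mRNAs 31 fell and none rose, with a median of −1.37. Over all tested genes 1.19% fell. Both NPP libraries lay below both N libraries for 80 of the 80, against 20.9% of all tested genes.

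**Figure D2:**
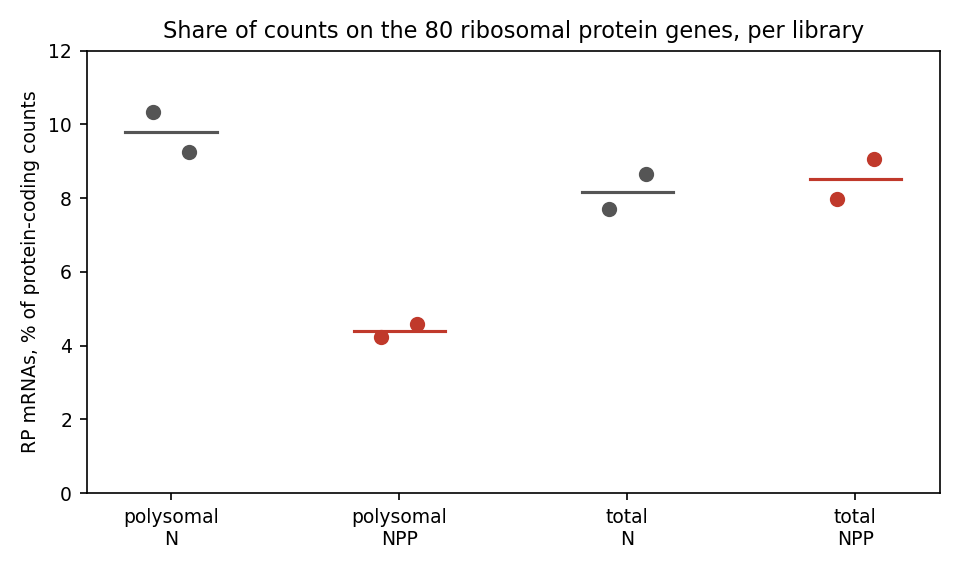
Percent of protein-coding counts on the 80 ribosomal protein genes (y axis) in each N and NPP library of polysomal and total mRNA, with a bar at the mean of 2 libraries. The polysomal NPP libraries stand at 4.24% and 4.58%, below the other 6 libraries, which range from 7.7% to 10.3%.

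RPS18 (ENSG00000231500.6), a protein of the small subunit whose gene lies at chr6:33272075-33276511 on GRCh38.p14, was at 2828 and 2548 CPM in N and 637 and 732 CPM in NPP in P and at 1911 and 2185 CPM in N, 1941 and 1984 CPM in NPP in T (log2FC −1.97 ± 0.19 (SE), adjusted p = 8.69e-05 in P). Its polysomal level was thus far lower with PP242 while total mRNA overlapped between groups. RPS19, the small subunit protein mutated in Diamond-Blackfan anaemia, was at 1254 and 1182 CPM in N and 307 and 326 CPM in NPP in P (log2FC −1.95 ± 0.20 (SE), adjusted p = 0.000129). RPL12, a protein of the ribosomal stalk base, was at 743 and 552 CPM in N and 160.3 and 179.9 CPM in NPP (log2FC −1.93 ± 0.20 (SE), adjusted p = 0.000129). RPL27A was at 1422 and 1334 CPM in N and 341 and 413 CPM in NPP (log2FC −1.87 ± 0.21 (SE), adjusted p = 0.000223). For each of these the 2 NPP libraries lay close together and far below N. RPL39, RPL37, RPL13A, RPL31 and RPL21 had log2FC between −1.87 and −1.71. RPL11, which binds MDM2 when ribosome assembly fails, was at 1659.7 and 1509 CPM in N and 601 and 689.6 CPM in NPP (log2FC −1.30 ± 0.20 (SE), adjusted p = 0.00243), near the median of its list. RPS6, the substrate of the S6 kinases, was at 1976 and 1691 CPM in N and 645 and 717 CPM in NPP (log2FC −1.43 ± 0.20 (SE), adjusted p = 0.00114).

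The 4 members that did not pass the test by edgeR were RPL38 (log2FC −0.88, adjusted p = 0.069), RPL36AL (−0.47, 0.438), RPL41 (−0.39, 0.626) and RPS12 (−0.81, 0.0797). With DESeq2 78 of the 80 passed, among them all 32 of the small subunit. RPL41 was at 268 and 277 CPM in N and 153 and 262 CPM in NPP, with the second NPP library close under N and the first far below. RPL36AL, which arose as a copy of RPL36A, was at 850.0 and 596 CPM in N and 509 and 534 CPM in NPP, and RPL36A itself at 1038 and 988 CPM in N and 338 and 396 CPM in NPP (log2FC −1.46 ± 0.23 (SE), adjusted p = 0.00273). Members of this family have many processed copies in the genome, among which RSEM shares reads, so single values carry that uncertainty. The range over the 80 genes was −1.97 to −0.39 in P and −0.14 to 0.29 in T.

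Ribosomal protein mRNAs are short and abundant, with a median coding length of 453 bases against 1407 for all tested genes. Among mRNAs of up to 1000 bases the 46 that encode ribosomal proteins had a median log2FC of −1.35 in P, and the 773 outside the ribosomal and TOP lists −0.13. Among genes above 200 CPM those of these lists had a median of −1.24 and the 882 others −0.073. With a smooth offset for mRNA length in every library, 92 mRNAs of these lists fell, against 87 without it. The mRNA lengths are those of the annotated canonical transcript. For some of these mRNAs it is far longer than the coding part, as for RPL37 (7573 bases, 291 coding) and TPT1 (4548 bases, 516 coding). The offset and the limit of 1000 bases carry that uncertainty, and which transcript was expressed was not tested. The lists hold 80 ribosomal protein and 32 other TOP mRNAs. Over all tested genes 235 fell with the offset and 161 without it. The median log2FC of small subunit proteins was −1.20 with the offset and −1.37 without it. That of large subunit proteins was −1.22 with the offset and −1.30 without it.

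The other TOP mRNAs followed with a wider spread. Of 32 members 11 fell in P and none rose, where 1.19% of all tested genes fell and 0.762% rose. The median log2FC was −0.56 in P and 0.075 in T. TPT1 was at 986 and 891 CPM in N and 237 and 255 CPM in NPP in P and at 1098 and 1257 CPM in N, 1249 and 1118 CPM in NPP in T (log2FC −1.93 ± 0.18 (SE), adjusted p = 5.28e-05 in P), a fall as large as that of the leading ribosomal proteins with overlapping total mRNA. EEF1A1 (ENSG00000156508.17, chr6:73489308-73525587), which took more counts than any other gene in polysomal N, was at 13556 and 13549.9 CPM in N and 5557 and 6357 CPM in NPP (log2FC −1.19 ± 0.15 (SE), adjusted p = 0.00062). In T it stood at 12208 and 13169 CPM in N and 16392 and 15679 CPM in NPP, so both NPP libraries were above N there (log2FC 0.34, adjusted p = 0.45). Subunits of the complex that exchanges the nucleotide of EEF1A1 fell as well. The fall was 1.22 for EEF1G, 1.03 for EEF1D and 0.99 for EEF1B2 on the log2 scale, with adjusted p of 0.000311, 0.00439 and 0.0227, respectively. All of them were lower in both NPP libraries. YBX1, an RNA-binding cold shock protein, was at 954 and 949.7 CPM in N and 324 and 353 CPM in NPP (log2FC −1.49 ± 0.15 (SE), adjusted p = 0.000129). GNB2L1, the gene of the ribosome scaffold RACK1, was at 2286 and 2018 CPM in N and 997 and 1049.7 CPM in NPP (log2FC −1.07 ± 0.16 (SE), adjusted p = 0.00208), and BTF3, a subunit of the nascent chain-associated complex, at 1378 and 1129.9 CPM in N and 726 and 706 CPM in NPP (log2FC −0.81 ± 0.19 (SE), adjusted p = 0.0455).

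Members that did not pass the test included well-known TOP mRNAs. EEF2, which moves the ribosome along the mRNA, was at 503 and 682 CPM in N and 364 and 389 CPM in NPP (log2FC −0.65 ± 0.26 (SE), adjusted p = 0.276), with both NPP libraries below both N libraries and a gap within N. PABPC1, the poly(A)-binding protein, was at 564 and 664 CPM in N and 283 and 433 CPM in NPP (log2FC −0.78 ± 0.22 (SE), adjusted p = 0.0963). The nucleolar chaperone NPM1 was at 3849 and 3528 CPM in N and 2635 and 2866 CPM in NPP (log2FC −0.42 ± 0.18 (SE), adjusted p = 0.324). EIF4A2, EIF3D, IPO5 and EIF4B, chosen after their values were seen as the members nearest 0, had log2FC between −0.049 and 0.10. Among 21 subunits of eIF3 and eIF2, the factors that bring the initiator tRNA to the small subunit, 3 fell (against 1.19% of all tested genes), namely EIF3F (−0.89, adjusted p = 0.00676), EIF3L (−0.69, 0.0151) and EIF3H (−0.73, 0.0331), and the median was −0.25. These 3 genes are also on the list of other TOP mRNAs and are counted among its members that fell. EIF3G was at 388 and 352 CPM in N and 255 and 268 CPM in NPP (log2FC −0.50 ± 0.15 (SE), adjusted p = 0.134).

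Of 21 genes for eIF4F subunits and their inhibitors 1 rose and none fell, where 0.762% of all tested genes rose and 1.19% fell, with a median log2FC of −0.075. The one that rose was PDCD4, an inhibitor of the helicase eIF4A, at 71.3 and 43.5 CPM in N and 105.9 and 112.4 CPM in NPP (log2FC 0.93 ± 0.22 (SE), adjusted p = 0.0385). EIF4E was at 196 and 200.0 CPM in N and 155 and 169.6 CPM in NPP (log2FC −0.29, adjusted p = 0.424) and EIF4EBP1, the gene of 4E-BP1, at 55.3 and 46.9 CPM in N and 41.3 and 36.0 CPM in NPP (−0.40, 0.401). Both were somewhat lower in both NPP libraries, and neither passed the test. EIF4EBP2 was at 52.4 and 60.3 CPM in N and 26.2 and 35.7 CPM in NPP (−0.87, 0.0738), with both NPP libraries below N. MTOR was at 37.8 and 40.3 CPM in N and 41.8 and 29.9 CPM in NPP, with overlapping groups (−0.12, 0.891).

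The change in P minus that in T, the translational efficiency (Te) on the log2 scale, was tested with an interaction term of drug and fraction. By this test 46 genes fell, 0.34% of those tested, and none rose, with 295 genes at an unadjusted p under 0.05 and with DESeq2 0.777% of genes fell, 78 of them ribosomal proteins, and none rose. Of the 46, 36 were ribosomal proteins and 4 were TPT1, EEF1A1, EEF1G and YBX1. RPL13A had a difference of −2.07 ± 0.27 (SE, adjusted p = 0.005), RPS19 of −2.07 ± 0.27 (0.005), TPT1 of −1.94 ± 0.24 (0.00471) and EEF1A1 of −1.52 ± 0.21 (0.005). Among the other 6, SLC25A6 was at 241 and 252 CPM in N and 90.9 and 99.04 CPM in NPP in P and 187 and 213 CPM in N, 191 and 234 CPM in NPP in T (difference −1.47, 0.005). CRTAP, a partner of collagen prolyl hydroxylation, differed by −1.24 (0.005), AHCY, which splits S-adenosylhomocysteine, by −1.11 (0.0471), and RPL22L1 by −1.58 (0.044). These 4 genes were named because they were the calls left outside the lists. The number of Te calls was 7 without the first polysomal NPP library and 17 without the second, 18 without the first polysomal N library and 65 without the second. Without the total mRNA libraries in turn it was 15, of which 3 were higher, and 22 (N) and 53 and 17 (NPP).

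The remaining 2, SPANXA1 and NDUFC2-KCTD14, are uncertain. SPANXA1 was at 17.9 and 19.0 CPM in N and 0.085 and 0.423 CPM in NPP, but its near-identical copy SPANXA2 was at 17.9 and 18.8 CPM in N and 26.2 and 38.9 CPM in NPP, and their summed level was 35.7 and 37.7 CPM in N and 26.3 and 39.3 CPM in NPP, with overlapping groups. The reads of the pair were divided differently between the copies in N and NPP. NDUFC2-KCTD14 is a readthrough gene with 0 counts in both total N libraries. TMEM189-UBE2V1, which had the most negative log2FC of all in P, is another readthrough gene, at 2.26 and 6.42 CPM in N and 0 and 0 CPM in NPP. The summed level of it, UBE2V1 and TMEM189 was 321 and 322 CPM in N and 209 and 222 CPM in NPP, and UBE2V1 itself fell (log2FC −0.65, adjusted p = 0.0199).

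A run of at least 5 pyrimidines that begins with C exactly at the annotated start (C followed by at least 4 letters that are each C or T, sense strand) was looked for in the RefSeq starts of the 10314 tested genes that had one. It was present in 5.29% of all of them, in 40.3% of the 124 genes that fell in P, in 6.25% of the 80 that rose and in 75.6% of the 41 that fell in Te. Outside the ribosomal and TOP lists it was present in 8.93% of the 56 genes that fell in P and in 3 of the 6 that fell in Te, against 4.75% of all tested genes there. A start within 3 bases raised the share to 14.4% of all genes and 80.5% of those that fell in Te. Outside the lists the share was then 14.3% of the 56 genes that fell in P, near the 13.8% of all tested genes there. It stayed at 3 of the 6 that fell in Te. YBX1, EEF1G and AHCY, which fell in Te, have no such run at the annotated start in this table, and EEF2, which has one, did not pass the test.

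Some mRNAs outside the ribosomal and TOP lists fell in P, and GAPDH, SLC25A5 and PFDN5 did so with a log2FC near 0 in T. Of 882 genes outside these lists and above 200 CPM 8 fell (0.907%) and 9 rose, against 0.552% and 0.769% of all tested genes outside the lists. PFDN5, ATP5D and MRPL36, given here as well, are below that level. GAPDH, the glycolytic dehydrogenase often used as a reference gene, was at 5289 and 4758 CPM in N and 2561 and 2262 CPM in NPP in P (log2FC −1.06 ± 0.15 (SE), adjusted p = 0.00121) and at 3307 and 3618 CPM in N, 3397 and 3201 CPM in NPP in T. It was the only one of 22 glycolytic genes to pass the test by edgeR, and 2 passed with DESeq2. The Te difference of GAPDH was −0.99 (adjusted p = 0.0574). SLC25A5, the paralogue of SLC25A6, was at 1372 and 1204 CPM in N and 727 and 733 CPM in NPP (log2FC −0.82 ± 0.16 (SE), adjusted p = 0.0107, log2FC in T 0.021). PFDN5, a prefoldin subunit, was at 226 and 176 CPM in N and 93.1 and 87.1 CPM in NPP (log2FC −1.15 ± 0.20 (SE), adjusted p = 0.00493, log2FC in T 0.017). SLC25A5 and PFDN5 were chosen after their values were seen, and their Te differences did not pass the test (adjusted p = 0.246 and 0.133). The c subunit of ATP synthase ATP5G2 (−0.95, adjusted p = 0.0101) and ATP5D (−0.69, 0.0369) were the 2 of 78 nuclear-encoded respiratory chain genes that fell, where the median was −0.19 and turned to 0.0091 without the first N library. MRPL36 (−0.82, 0.0368) was the only one of 78 mitochondrial ribosomal protein genes to fall, with a list median of −0.21. With DESeq2 7 of the respiratory chain genes and 2 of the mitochondrial ribosomal protein genes passed. None of the 13 mitochondrially encoded mRNAs passed the test by edgeR or DESeq2, or had an unadjusted p under 0.05.

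Other genes fell in P with a similar log2FC in T. ID3, a partner of basic helix-loop-helix factors that keeps them off DNA, was at 20.3 and 21.8 CPM in N and 2.75 and 1.94 CPM in NPP in P and at 13.7 and 17.1 CPM in N, 1.73 and 1.62 CPM in NPP in T (log2FC −3.16 ± 0.22 (SE), adjusted p = 3.58e-06 in P and −3.19 in T). ATOH8, a factor of the same helix-loop-helix class, was at 5.66 and 3.29 CPM in N and 1.19 and 0.333 CPM in NPP in P (log2FC −2.53 ± 0.50 (SE), adjusted p = 0.0153, T −2.28, 0.0767). ANGPTL4, a secreted inhibitor of lipoprotein lipase, was at 12.7 and 10.3 CPM in N and 4.39 and 3.63 CPM in NPP in P (log2FC −1.51 ± 0.26 (SE), adjusted p = 0.00482, T −1.40, 0.0267). The phosphatase of ERK DUSP7 was at 38.3 and 41.7 CPM in N and 19.7 and 20.1 CPM in NPP (log2FC −1.01 ± 0.18 (SE), adjusted p = 0.00583, T −1.04, 0.0174). DUSP7 was the only one of 39 ERK feedback and immediate early genes to pass the test in P by edgeR, and 4 passed with DESeq2. By edgeR 1.19% of all tested genes fell and 0.762% rose. ID1 was at 37.9 and 14.4 CPM in N and 12.4 and 7.8 CPM in NPP (−1.36, 0.0974). Of the 23 genes of the ID, BMP and Notch list ID3 alone passed the test by edgeR, and 2 genes passed with DESeq2. The Te difference of these 5 genes did not pass the test.

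Ribosome assembly factors were among the genes that fell. Of 85 genes for ribosome biogenesis and RNA polymerase I, 4 fell in P, where 1.19% of all tested genes fell, and none rose, with a median log2FC of −0.19 in P and −0.15 in T. RRS1, needed for assembly of the large subunit, was at 85.3 and 84.2 CPM in N and 29.7 and 31.7 CPM in NPP in P and at 58.7 and 70.3 CPM in N, 23.6 and 27.7 CPM in NPP in T (log2FC −1.47 ± 0.18 (SE), adjusted p = 0.000474 in P, adjusted p = 0.00364 in T). The others were NOP2, an rRNA methyltransferase (−0.63, adjusted p = 0.0342), NIP7 (−0.67, 0.0368) and BYSL (−0.64, 0.0384), whose log2FC in T were −0.63, −0.55 and −0.45 and did not pass the test there.

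Cell cycle genes moved in both directions. CCND1 (cyclin D1), which drives entry into S phase, was at 541 and 752 CPM in N and 287 and 383 CPM in NPP (log2FC −0.95 ± 0.21 (SE), adjusted p = 0.0283), and the related cyclin CCND3 at 201 and 198 CPM in N and 136 and 139.7 CPM in NPP (log2FC −0.53 ± 0.12 (SE), adjusted p = 0.0308). The CDK inhibitors of the list that passed the test rose, CDKN1B (p27) at 67.6 and 54.3 CPM in N and 136 and 101.5 CPM in NPP (log2FC 0.96 ± 0.20 (SE), adjusted p = 0.0242) and CDKN1C (p57) at 2.83 and 2.2 CPM in N and 6.09 and 4.87 CPM in NPP (log2FC 1.13 ± 0.26 (SE), adjusted p = 0.036). The cyclins were thus lower and the inhibitors higher in both NPP libraries. In the MYC network MNT (log2FC 1.03, adjusted p = 0.0159) and MXD3 (0.95, 0.04), which compete with MYC for MAX, rose, and the related factor MLX fell (−0.75, 0.00439). MYC was at 199.9 and 194 CPM in N and 252 and 274 CPM in NPP (log2FC 0.42 ± 0.13 (SE), adjusted p = 0.156), with both NPP libraries above N. In all, 4 of the 31 genes of this list rose and 3 fell, where 0.762% of all tested genes rose and 1.19% fell. CDC6 (−0.65, 0.041) and MCM10 (−0.63, 0.0448) were the 2 of 42 replication genes that fell, where the median of −0.11 turned to 0.043 with library totals.

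Some mitotic genes rose. Of 38 members 6 passed the test, all upwards, where 0.762% of tested genes rose, and the median log2FC was 0.27 in P and 0.28 in T. CENPF, a protein of the outer kinetochore, was at 162 and 161 CPM in N and 317 and 367 CPM in NPP (log2FC 1.09 ± 0.14 (SE), adjusted p = 0.00072). The kinetochore motor CENPE was at 76.7 and 80.7 CPM in N and 139.9 and 165 CPM in NPP (log2FC 0.95 ± 0.16 (SE), adjusted p = 0.00513). Both genes had close replicates and groups far apart. HMMR, ASPM, TTK and ANLN had log2FC of 1.21, 0.86, 0.70 and 0.63 with adjusted p of 0.0101, 0.0107, 0.0221 and 0.0491. Of the replication-dependent histone genes 4 rose, where only 35 of 65 passed the filter on low counts in these poly(A)-selected libraries, which should hold little replication-dependent histone mRNA. HIST1H2AC was at 18.8 and 19.2 CPM in N and 78.1 and 71.5 CPM in NPP (log2FC 1.98 ± 0.24 (SE), adjusted p = 0.000474), and HIST1H2BC, HIST1H2BK and HIST1H1C rose by 1.84, 1.19 and 1.18. No histone gene of the list fell, and all 4 that rose in P also rose in T. Histone genes have near-identical copies, so their single values are uncertain.

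Of the genes with the largest rises in P that are given here, CCNG2, CREBRF, KLHL24, PIM1, HBP1, RHEBL1 and PNRC1 also rose in T, with log2FC of 2.43, 2.00, 2.18, 2.13, 1.63, 1.83 and 1.75 there, respectively. CCNG2 (ENSG00000138764.13, chr4:77157207-77433388), the cyclin G2 gene that FOXO induces in resting cells, was at 36.3 and 23.8 CPM in N and 182 and 210.4 CPM in NPP in P and at 48.8 and 36.7 CPM in N, 215 and 244 CPM in NPP in T (log2FC 2.71 ± 0.26 (SE), adjusted p = 7.29e-05 in P). CREBRF, a negative regulator of the CREB3 stress factor, was at 7.36 and 6.97 CPM in N and 34.1 and 42.6 CPM in NPP (log2FC 2.42 ± 0.21 (SE), adjusted p = 2.73e-05). KLHL24, a ubiquitin ligase adaptor, was at 12.3 and 5.88 CPM in N and 52.6 and 43.3 CPM in NPP (log2FC 2.41 ± 0.42 (SE), adjusted p = 0.00583), with a gap between its 2 N libraries. PIM1, a kinase that acts on several AKT substrates, was at 25.3 and 25.3 CPM in N and 100.5 and 100.9 CPM in NPP in P and 24.3 and 21.9 CPM in N, 100.2 and 102.1 CPM in NPP in T (log2FC 1.99 ± 0.14 (SE), adjusted p = 3.58e-06 in P). Its replicates agreed closely in every group. HBP1, a repressor of the G1 to S transition, was at 30.1 and 17.8 CPM in N and 100.5 and 86.3 CPM in NPP (log2FC 1.97 ± 0.25 (SE), adjusted p = 0.00062). RHEBL1, a paralogue of the mTORC1 activator RHEB, was at 6.49 and 2.74 CPM in N and 16.3 and 14.7 CPM in NPP (log2FC 1.77 ± 0.29 (SE), adjusted p = 0.00371), and PNRC1, a nuclear receptor coactivator, at 22.2 and 13.6 CPM in N and 55.6 and 49.3 CPM in NPP (log2FC 1.56 ± 0.24 (SE), adjusted p = 0.00218). APOLD1 and TCP11L2 rose by 1.64 and 1.65, and their log2FC in T of 1.37 and 1.63 missed the test there.

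Of 30 genes of insulin receptor substrate feedback and FOXO targets 6 rose and none fell, where 0.762% of all tested genes rose, with a median log2FC of 0.30 in P and 0.31 in T. Besides CCNG2 and CDKN1B these were KLF6 (1.25, adjusted p = 0.00414), TXNIP (1.03, 0.00476), SESN3 (1.01, 0.0256) and PIK3IP1 (1.67, 0.0331). TXNIP, which inhibits thioredoxin and glucose uptake, was at 173 and 193 CPM in N and 394 and 356 CPM in NPP. PIK3IP1, a membrane inhibitor of PI3K, was near 1 CPM, at 0.392 and 0.646 CPM in N and 1.13 and 2.27 CPM in NPP. The range of the list was −0.69 to 2.71, and the remaining 24 members did not pass the test.

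Some genes that feed into mTORC1 rose. Of 29 genes for mTOR complexes and their control 4 rose and none fell, where 0.762% of all tested genes rose, and the median was 0.068. FNIP1, the partner of folliculin, was at 22.5 and 29.0 CPM in N and 58.8 and 69.1 CPM in NPP (log2FC 1.31 ± 0.16 (SE), adjusted p = 0.000432). Folliculin itself (FLCN), which activates RRAGC toward mTORC1, was at 28.8 and 42.1 CPM in N and 60.8 and 80.6 CPM in NPP (log2FC 0.99 ± 0.19 (SE), adjusted p = 0.0135), and RRAGC, a Rag GTPase, at 52.7 and 62.7 CPM in N and 86.5 and 113 CPM in NPP (log2FC 0.79 ± 0.16 (SE), adjusted p = 0.0153). These 3 gene products act together in amino acid signalling at the lysosome, and each was higher in both NPP libraries. SESN3, a sestrin of the leucine-sensing branch, was at 5.27 and 7.14 CPM in N and 13.6 and 11.5 CPM in NPP (log2FC 1.01 ± 0.22 (SE), adjusted p = 0.0256). Among 45 lysosome and autophagy genes 3 rose, against the same 0.762% of all genes, and none fell, with a median of 0.12. The autophagy receptor SQSTM1 (p62) was at 378 and 397 CPM in N and 732 and 618 CPM in NPP (log2FC 0.80 ± 0.14 (SE), adjusted p = 0.00482), the lysosomal cholesterol exporter NPC1 at 65.4 and 59.1 CPM in N and 131 and 102.4 CPM in NPP (log2FC 0.90 ± 0.19 (SE), adjusted p = 0.025) and ATG14, a subunit of the PI3K complex that starts autophagosomes, at 19.7 and 20.2 CPM in N and 29.6 and 31.6 CPM in NPP (log2FC 0.62 ± 0.13 (SE), adjusted p = 0.0264).

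**Figure D3:**
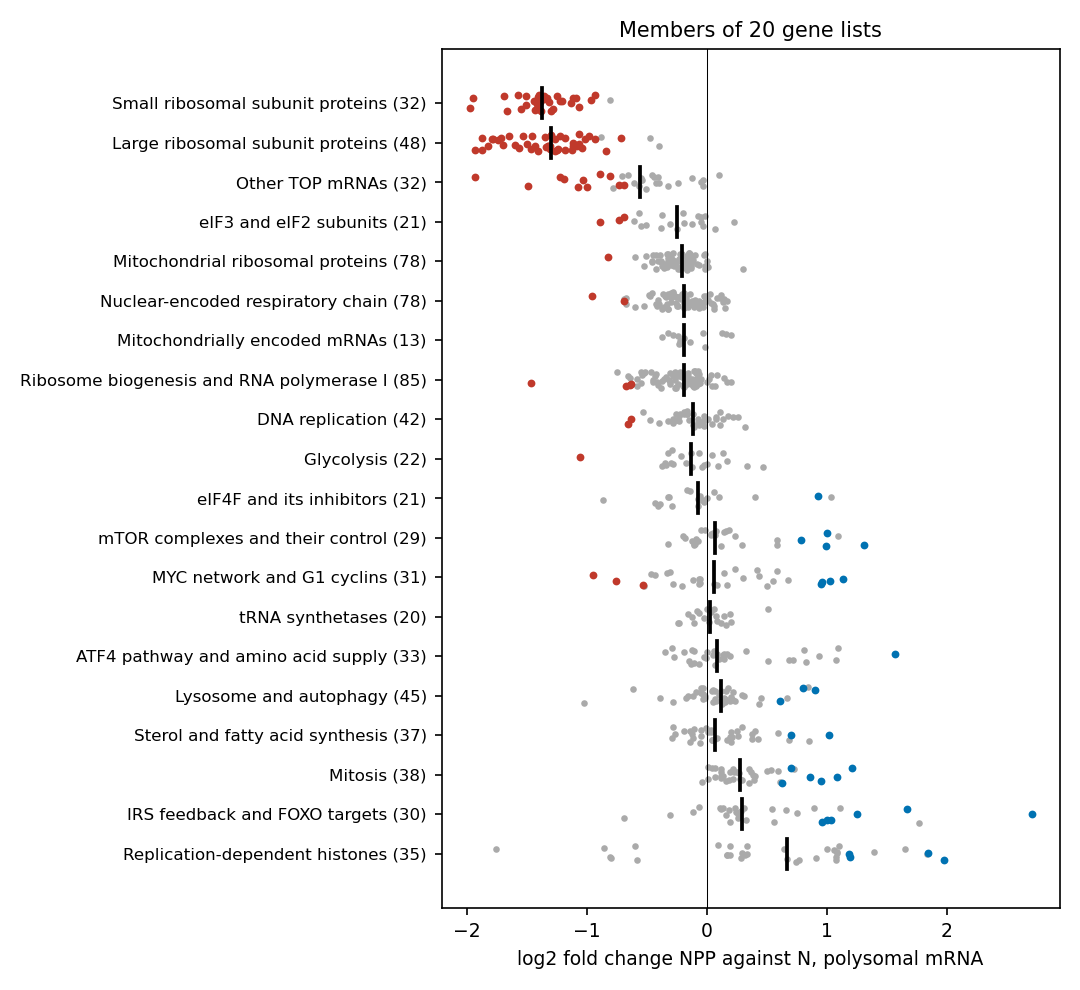
Log2 fold change with PP242 in normoxia in polysomal mRNA (x axis) for the tested members of 20 gene lists (rows, with the number tested), 1 point per gene, red where a gene fell, blue where it rose and grey where it did not pass the test, with a bar at the list median. The ribosomal lists sit at medians of −1.37 and −1.30, while the mitosis, FOXO and histone lists have medians of 0.27, 0.30 and 0.67.

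Stress and lipid genes gave few calls. INSIG1, which retains the SREBP complex in the endoplasmic reticulum, was at 97.1 and 97.99 CPM in N and 189 and 206 CPM in NPP (log2FC 1.02 ± 0.14 (SE), adjusted p = 0.00144), and the phosphatidate phosphatase LPIN1 at 35.7 and 50.8 CPM in N and 66.5 and 74.1 CPM in NPP (log2FC 0.70 ± 0.16 (SE), adjusted p = 0.0318). Neither overlapped between groups. They were the 2 of 37 sterol and fatty acid genes that rose, and none fell, where 0.762% of all tested genes rose and 1.19% fell. PPP1R15A (GADD34), which directs dephosphorylation of eIF2α, was at 201 and 371 CPM in N and 630.2 and 1071 CPM in NPP (log2FC 1.57 ± 0.34 (SE), adjusted p = 0.0257), with both N libraries below both NPP libraries but a wide gap within each group. It was the only one of 33 genes of the ATF4 pathway to pass the test by edgeR, and 4 passed with DESeq2. ATF4 was at 371 and 387 CPM in N and 545 and 673 CPM in NPP (0.68, 0.119). HERPUD1, of endoplasmic reticulum-associated degradation, rose (log2FC 0.90 ± 0.16 (SE), adjusted p = 0.00703), and BBC3 (PUMA), a pro-apoptotic BH3 protein, was at 4.18 and 4.26 CPM in N and 10.5 and 17.1 CPM in NPP (log2FC 1.71 ± 0.29 (SE), adjusted p = 0.00474). Among 24 hypoxia targets ANKRD37 (log2FC 1.58 ± 0.20 (SE), adjusted p = 0.000474) and KDM3A (log2FC 0.93 ± 0.18 (SE), adjusted p = 0.0107) rose and ANGPTL4 fell.

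No member passed the test among 20 tRNA synthetases, 50 cytosolic chaperones and proteasome subunits, 21 cytokine genes, 13 integrins, 37 genes of matrix, proteases and EMT, 18 clock genes and 13 genes of iron and metallothioneins, at an adjusted p under 0.05 by edgeR. Of these 172 genes 20 had an unadjusted p under 0.05 and 3 passed with DESeq2. ITGB3, the integrin β3 gene, was near the filter at 1.18 and 1.97 CPM in N and 2.27 and 1.84 CPM in NPP (log2FC 0.37 ± 0.34 (SE), adjusted p = 0.708), with overlapping groups. HIF1A was at 201 and 202 CPM in N and 212 and 177 CPM in NPP (log2FC −0.05 ± 0.18 (SE), adjusted p = 0.943), also overlapping. HSPA8, the constitutive HSC70 chaperone, was at 2653 and 3218 CPM in N and 1523 and 1913 CPM in NPP (log2FC −0.77 ± 0.20 (SE), adjusted p = 0.0716). Its NPP libraries were both below N, without passing the test. The cytoskeletal actins, among the 5 genes of highest CPM in polysomal N with EEF1A1, GAPDH and S100A6, were at 6675 and 6922 CPM in N and 5429.8 and 6336 CPM in NPP for ACTB (−0.21, 0.604) and at 3986 and 4754 CPM in N and 2581 and 3404 CPM in NPP for ACTG1 (−0.55, 0.188).

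Per kilobase of the annotated canonical transcript, RPS18 was at 5151 and 4641 CPM per kb in N and 1159.7 and 1333 in NPP. On the same scale EEF1A1 was at 3859.9 and 3858 CPM per kb in N and 1582 and 1810.1 in NPP and ACTB at 3684 and 3819.9 CPM per kb in N and 2997 and 3497 in NPP. With these lengths EEF1A1 was near the level of ACTB in N and below it in NPP. The order of the 2 genes depends on the transcript annotated, which for EEF1A1 has 3512 bases with 1386 coding. Which transcript was expressed was not tested.

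**Figure D4:**
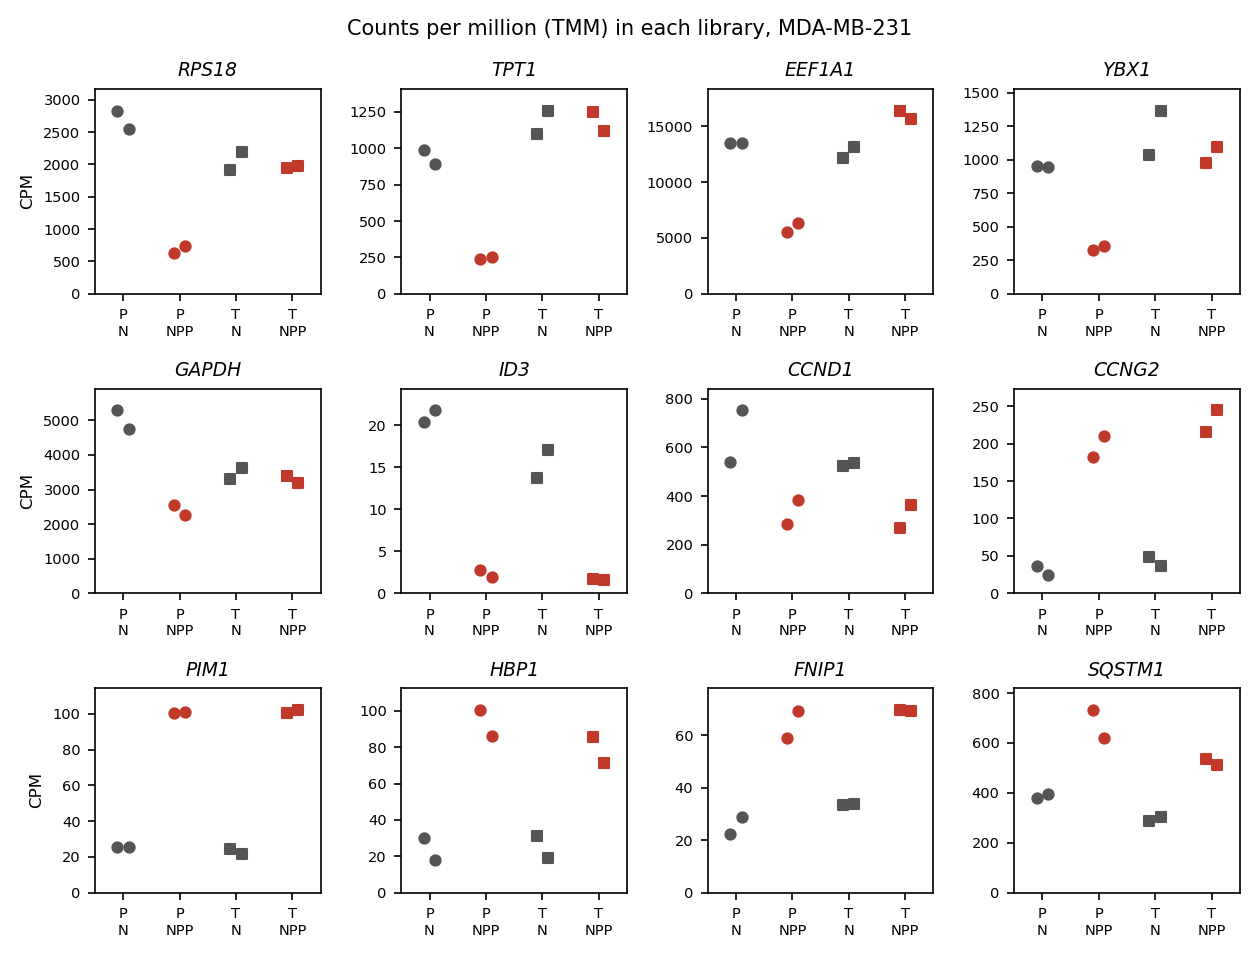
CPM, counts scaled to library size (y axis, from 0) of 12 genes in each MDA-MB-231 library of polysomal (P, circles) and total (T, squares) mRNA, grey for N and red for NPP, with 2 libraries per group. RPS18, TPT1, EEF1A1, YBX1 and GAPDH are lower with PP242 in P and overlap or are higher in T, ID3 and CCND1 are lower in both, and the last 5 genes are higher in both.

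The same drug in hypoxia moved most of these genes the same way. In P of cells at 0.5% O2, PP242 (HPP against H, with control libraries of their own) raised 656 genes and lowered 895, 4.86% and 6.62% of those tested. Of the 161 genes that fell in normoxia 153 also fell in hypoxia, 95.0% of the first list and 17.1% of the second, and of those that rose 93 also rose, 90.3% and 14.2%. The median log2FC of the 80 ribosomal protein mRNAs was −1.32 in normoxia and −1.85 in hypoxia. The difference of the 2 effects passed the test for 1 gene, 0.0074% of those tested, by edgeR, with 563 genes at an unadjusted p under 0.05. That gene was SPANXA1, whose reads are shared with SPANXA2. None of the 80 ribosomal proteins passed this test by edgeR, 27 of them had an unadjusted p under 0.05, and with DESeq2 6 of them were among 14 genes whose fall or rise differed. The genes of smallest p after SPANXA1 were RPS21 (log2FC −1.08 in normoxia, −2.66 in hypoxia, adjusted p of the difference = 0.331), RPS12 (−0.81 and −2.28, 0.773), the mitochondrial ribosomal protein MRPL34 (−0.16 and −1.15, 0.773) and RPS28 (−1.24 and −2.64, 0.773). RPS21 was at 244 and 297 CPM in N and 118 and 137 CPM in NPP, against 514 and 466 CPM in H and 75.7 and 79.8 in HPP, so that N was lower than H and NPP higher than HPP.

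MCF10A cells were compared with MDA-MB-231 in a joint fit of all 32 libraries, in which the biological coefficient of variation was 0.253 in place of 0.15, and 9 genes of MDA-MB-231 passed its test (0.0629%) and 843 of MCF10A (5.9%). The ribosomal protein mRNAs had a median log2FC of −1.30 in MDA-MB-231 and −1.84 in MCF10A, and the difference between lines passed the test for none of them by edgeR or DESeq2, with none at an unadjusted p under 0.05. The difference for RPS18 was 0.73 ± 0.68 (SE). Ribosomal protein mRNAs took 14.5% and 9.04% of protein-coding counts in the 2 polysomal N libraries of MCF10A. The test could thus miss a gap such as that between the 2 medians. The lines were deposited as separate count tables, so that line and table cannot be told apart, and each effect was taken within its own table. By the study's methods the medium of MCF10A also held EGF, hydrocortisone, cholera toxin and insulin, which that of MDA-MB-231 did not. Line and medium thus cannot be told apart either. The test of the difference passed for 18 genes in all, 0.126% of 14298. ANKRD37, an ankyrin repeat protein, was the 1 of these that passed the joint test in MDA-MB-231, where it rose by 1.60, and it was at 10.4 and 7.52 CPM in N and 7.15 and 6.19 CPM in NPP in MCF10A (difference 2.02 ± 0.39 (SE), adjusted p = 0.0354). The other 17 passed it in MCF10A and not in MDA-MB-231. ID2, a relative of ID3, was at 0.74 and 0.517 CPM in N and 1.02 and 0.756 CPM in NPP in MDA-MB-231 and at 45.6 and 26.0 CPM in N and 3.93 and 3.84 CPM in NPP in MCF10A (difference 3.74 ± 0.52 (SE), adjusted p = 0.00257). TXNIP, which rose in MDA-MB-231 as given above, was at 46.4 and 79.0 CPM in N and 897 and 826 CPM in NPP in MCF10A (difference −2.73 ± 0.45 (SE), adjusted p = 0.00989). The cell cycle regulator RGCC was at 2.87 and 2.55 CPM in N and 3.71 and 4.29 CPM in NPP in MDA-MB-231 and at 0.338 and 0.224 CPM in N and 12.5 and 13.1 CPM in NPP in MCF10A (difference −4.96 ± 0.66 (SE), adjusted p = 0.00257). ID3 itself fell in both lines, by 3.14 and 2.45 on the log2 scale. The number of genes whose change differed was 3 to 20 with each of the 8 libraries left out in turn, lowest without the first N or the second NPP library of MCF10A.

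**Figure D5:**
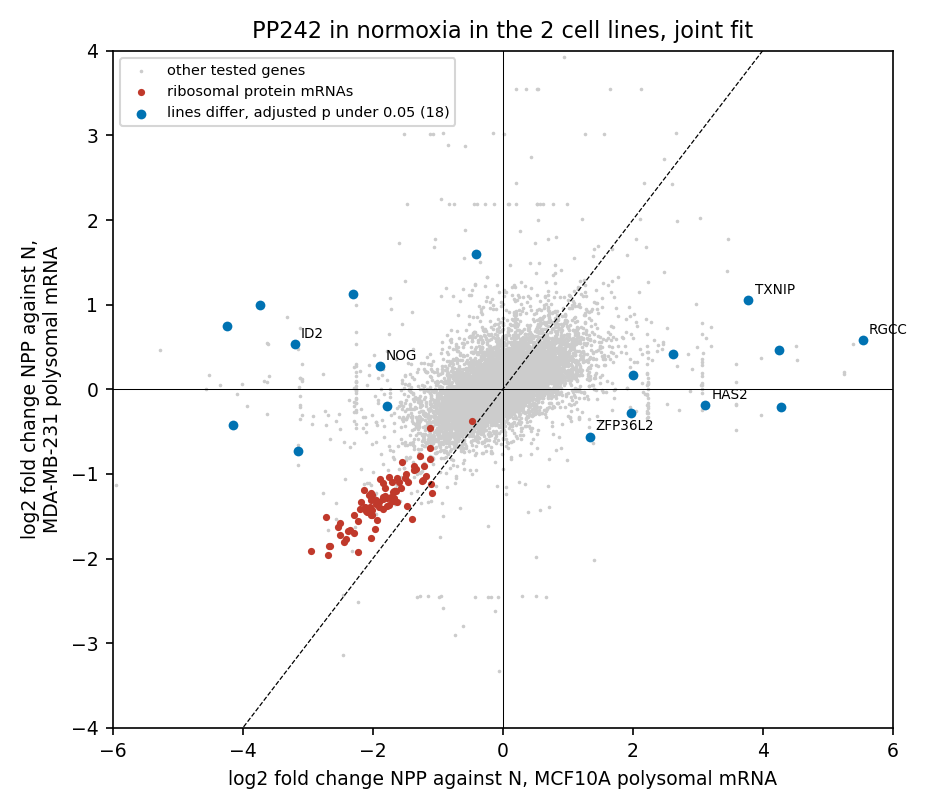
Log2 fold change with PP242 in normoxia in polysomal mRNA of MCF10A (x axis) and MDA-MB-231 (y axis) from the joint fit, 1 point per gene with a mean of at least 1 CPM or a difference between lines, with 7 genes outside the plotted range. Red points are ribosomal protein mRNAs, which lie at negative values in both lines, blue points are the 18 genes whose change differed between lines, some of them named, and the dashed line marks equal change.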

How the data were processed

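Per the labels and the study's methods, polysomal and total mRNA were poly(A)-selected and sequenced, and the authors aligned reads with STAR and made expected counts per gene with RSEM, deposited as whole numbers and not normalized. The methods name GRCh38 and GENCODE v24 and the labels GRCh37. The start sequences here and their positions come from RefSeq on GRCh38.p14, and gene positions and transcript lengths from GENCODE v44 on GRCh38. A strand setting is not given in the sources used here, so overlapping genes cannot be told apart. Protein-coding genes that passed filterByExpr were scaled by TMM and tested with the quasi-likelihood F test of edgeR 4.0.16 (R 4.3.3) over the 16 MDA-MB-231 libraries in 8 groups, and over all 32 for the difference between lines. Adjusted p are Benjamini-Hochberg values, and CPM is the count scaled to library size with TMM factors. The scripts were tested on simulated data.

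The libraries, 31 gene lists and 4 marker lists were chosen with earlier results of these data known. Named genes were the 15 largest called rises and falls with a mean of at least 1 CPM and groups apart, the members of smallest p and all called members of each list, the leading genes of each difference, a set of 15 genes and the 5 of highest CPM. Alternatives were DESeq2 1.42.0, other scalings and filters, fewer libraries, a replicate block, other thresholds, all gene classes, each library left out and, added after the data were seen, an offset for mRNA length. Some genes are not reported here. The MDA-MB-231 libraries held 18340916 to 34752512 counts in the N and NPP groups, and the polysomal ones of MCF10A 35834206 to 46032327.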

Additional observations from a re-analysis of the deposited data

Results flagged for a closer look

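The effect of PP242 on polysomal mRNA in normoxia differed between MDA-MB-231 and MCF10A, by the test of the difference in the joint edgeR fit, for genes among the 4 of smallest p in each direction. Those with a mean of at least 1 CPM over the 4 MCF10A libraries, a minimum set after the values were seen, are given in the order MDA-MB-231 and MCF10A. The difference was positive for ID2 (log2FC 0.54 and −3.20, difference 3.74, adjusted p = 0.00257) and NOG (log2FC 0.27 and −1.89, difference 2.16, adjusted p = 0.00989), which encode an inhibitor of helix-loop-helix factors and the BMP antagonist noggin. It was negative for RGCC (log2FC 0.58 and 5.54, difference −4.96, adjusted p = 0.00257), HAS2 (log2FC −0.19 and 3.11, difference −3.30, adjusted p = 0.00307), TXNIP (log2FC 1.05 and 3.78, difference −2.73, adjusted p = 0.00989) and ZFP36L2 (log2FC −0.56 and 1.34, difference −1.89, adjusted p = 0.0177), of which HAS2 makes hyaluronan and ZFP36L2 binds AU-rich mRNA. In each of these 6 genes the larger change was in MCF10A.

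Between normoxia and hypoxia SPANXA1 differed by −5.42 (adjusted p = 0.00365) by edgeR. DESeq2 gave it no adjusted p, and the 14 genes it called all had a positive difference, so SPANXA1 is not among them. The summed level of SPANXA1 and SPANXA2 was 32.7 and 29.2 CPM in H and 22.6 and 31.0 CPM in HPP.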

How the results depend on the processing

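The fall of ribosomal protein and other TOP mRNAs in P kept its direction and stayed within 1.5 times the 87 calls under the alternatives run for it, which leave out the other thresholds, except without the first NPP library, where it was 44, and over the left-out libraries it ranged from 44 to 82. Genes called higher in P (0.762% of those tested) ranged from 33 to 60 and genes called lower (161) from 55 to 113 with 1 library left out. Higher and lower counts were 199 and 330 with DESeq2, 315 and 254 with no filter, 45 and 100 at an absolute log2FC of at least 1, and 225 and 263 with a replicate block within each fraction. The higher count was 247 with library totals, 49 with only the 4 libraries compared, 213 with a replicate block and 194 at an adjusted p under 0.10. With library totals 33.4% of called genes were lower, against 61.0%.

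The median log2FC of large subunit proteins was −1.14 with library totals and −1.42 to −1.17 with 1 library left out, and that of small subunit proteins −1.21 with library totals, −1.20 with the mRNA length offset and −1.46 to −1.22 with 1 library left out. That of other TOP mRNAs was −0.40 with library totals. Some list medians changed sign. With library totals this held for DNA replication (0.043), glycolysis (0.027) and chaperones (0.027), and with the length offset for tRNA synthetases (−0.0057). Without the first N library the respiratory chain turned from −0.19 to 0.0091 and chaperones from −0.13 to 0.029. Without the first NPP library the clock turned from 0.26 to −0.031. Ranges over the left-out libraries were −0.35 to 0.0091 for the respiratory chain, −0.22 to 0.029 for chaperones and −0.031 to 0.48 for the clock. HIF1A turned to 0.11 and MTOR to 0.040 with library totals, and with 1 library left out they ranged from −0.18 to 0.074 and from −0.38 to 0.097. The cause was not tested.

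Te calls (46 genes, 0.34% of those tested) were 0.777% with DESeq2, 0.634% with no filter, where 15 genes were higher, 0.635% with only the libraries compared, 0.629% with a replicate block within each fraction, 0.459% with all gene biotypes, 0.632% with the length offset, 0.54% at an adjusted p under 0.10 and 0.0489% to 0.453% with 1 library left out. Genes that differed between normoxia and hypoxia (1) were 14 with DESeq2, without SPANXA1, 51 with no filter, 2 with library totals and 2 with a replicate block. Genes that differed between lines (18) were 57 with DESeq2, 2 with only the libraries compared, 6 with polysomal libraries only, 42 with a replicate block within each fraction, 46 with the length offset, 28 at an adjusted p under 0.10 and 3 to 20 with 1 library left out.

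Deviations of same-numbered replicates correlated over 0.1 in 19 of 28 pairs of groups (lowest −0.187, highest 0.348, 0.347 for N and NPP in P). Libraries of a number thus tended to deviate together, but the rule for a pairing asked for every pair of groups, so the tests carry no block. The titles also give P and T of a replicate a shared number, and these correlated at 0.145 in N and 0.348 in NPP. With a replicate block 0.511% of genes had Te calls, and 238 lower calls in P and 27 genes that differed between lines were found. Of the 157 named genes followed, 4 values reversed, all of HIF1A or MTOR, and 267 of the values of called genes lost the call, most of them with a library left out. With 2 libraries a group, an exact permutation test of one gene cannot go below p = 0.333.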
